A study of Mus musculus with 6 samples.

Results

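Linker histones were followed through 6 genes, H1f0, H1f2, H1f3, H1f4, H1f5 and H1f10, picked by symbol out of the 31253 genes of the deposited matrices. They were picked because earlier values of these same libraries had several of them higher in T2D than in Con, so the Con against T2D levels below are a description of what chose them and carry no test. Each of the 6 libraries held mononuclear cells from the peripheral blood of male mice aged 12 to 13 weeks. The 3 Con libraries came from mice given saline by intraperitoneal injection and the 3 T2D libraries from mice given STZ (streptozotocin, a toxin of insulin-producing cells) by the same route. The series title names an HFD/STZ model of type 2 diabetes, whereas the sample labels give the injection only. They give no strain, no diet per sample, no glucose value and no batch, and they do not say how many animals stand behind a library, so the p-values below measure the spread between these libraries. Cells were isolated over Ficoll, red cells were lysed, and 3′-end libraries with unique molecular identifiers (UMIs, tags that count captured RNA molecules) were made on BD Rhapsody.

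Linker histones of the H1 family bind the nucleosome where DNA enters and leaves it, and they help to fold chromatin into more compact fibres. H1f2, H1f3, H1f4 and H1f5, which encode the proteins also called H1.2, H1.3, H1.4 and H1.5, belong to the main histone gene cluster of the mouse and are known as replication-dependent genes. Their classical mRNAs are made in S phase and end in a stem-loop instead of a poly(A) tail, and their promoters are known for an H1 box and a CCAAT box. H1f0 and H1f10 are replacement genes outside the cluster with polyadenylated mRNAs. H1f0 is known for its accumulation in non-dividing, differentiated cells, and polyadenylated forms of some cluster H1 mRNAs are known from differentiated cells as well.

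The promoters of the 4 cluster genes are shown because they share the motifs that the family is known for. All 4 genes lie on mouse chromosome 13 (GRCm38), each as a single exon: H1f2 at chr13:23738808-23740367 on the plus strand, H1f3 at chr13:23553262-23560686 on the plus strand, H1f4 at chr13:23620629-23622558 on the minus strand and H1f5 at chr13:21779883-21780625 on the minus strand. Each window below is 100 bases of the gene's own strand, 5′ to 3′, from the RefSeq promoter table (GRCm38.p6, 250 bases before to 50 after the start). The first run of capitals is the H1 box, AAACACA, and the second is CCAAT.
H1f2 promoter: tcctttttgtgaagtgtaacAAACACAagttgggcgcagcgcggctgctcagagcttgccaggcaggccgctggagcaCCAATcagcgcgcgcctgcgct
H1f3 promoter: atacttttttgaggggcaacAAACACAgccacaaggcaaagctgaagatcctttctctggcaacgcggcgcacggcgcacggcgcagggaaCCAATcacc
H1f4 promoter: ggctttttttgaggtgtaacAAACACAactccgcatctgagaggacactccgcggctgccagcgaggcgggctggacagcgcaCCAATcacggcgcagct
H1f5 promoter: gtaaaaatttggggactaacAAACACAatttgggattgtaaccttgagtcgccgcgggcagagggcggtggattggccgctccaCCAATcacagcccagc

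The H1 box began 112, 122, 115 and 117 bases upstream of the start in H1f2, H1f3, H1f4 and H1f5, and CCAAT began 58, 71, 63 and 64 bases after it. Searched on both strands, AAACACA was present in 7.18%, CCAAT in 37.41% and TATAAA in 13.62% of 32851 mouse promoters of the same length. TATAAA was present in the H1f3, H1f4 and H1f5 promoters and not in that of H1f2. None of the 3 motifs was present in the promoter windows of H1f0 (chromosome 15) or H1f10 (chromosome 6). The H1f0 window ended at position 79028261 on the plus strand, before the annotated start of the gene at 79028450. The search therefore cannot tell whether the bases next to that start hold the motifs. A match is a run of letters, and no binding was measured.

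The stem-loop is shown because the assay captured 3′ ends: a transcript that stops there has no poly(A) tail. In the GENCODE M21 transcripts a stem of 6 paired bases with a loop of 4, in capitals, was present in H1f2, H1f3 and H1f4.
H1f2 stem-loop: aaaaGGCTCTTTTCAGAGCCacca
H1f3 stem-loop: aaacGGCTCTTTTCAGAGCCaccc
H1f4 stem-loop: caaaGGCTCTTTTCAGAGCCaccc

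The annotated transcript ran on for 840 bases after the stem-loop in H1f2, 4884 in H1f3 and 1153 in H1f4, and the H1f2 transcript held a poly(A) signal in its last 60 bases. No stem-loop of these letters was found in the annotated transcripts of H1f5, H1f0 and H1f10. The H1f5 transcript is annotated to 743 bases. On the minus strand it ends at position 21779883 and its coding bases at 21779886, so almost nothing after the coding part was there to search. The search therefore cannot tell whether the H1f5 mRNA has a stem-loop. Whether the counted molecules were the stem-loop form or the longer forms was not tested. H1f4 overlaps the core histone gene H2bc6 and the pseudogene Gm11398 on the same strand, where reads may be split among them. H2bc6 had 30 UMIs in non-cycling NK-gated cells beside 340 for H1f4, and 43 beside 4 in neutrophils. H1f0 overlaps the antisense gene Gm49544. H1f10 overlaps the antisense gene Gm5577 and, on its own strand, the miRNA gene Gm47286. None of the sources used here gives the strand setting of the authors' counting, and the part of these overlaps in the counts was not tested.

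The libraries held 7404 to 9112 cell barcodes and 23574052 to 32321855 UMIs each. Of 49407 barcodes, 47469 were used after filters and 36366 fell into exactly 1 of 13 marker gates, 74.3% to 80.2% of the cells of a library. Between 4.29% and 4.91% of a library's barcodes also occurred in another library. No pair of libraries agreed within sampling noise (the lowest chi-square per degree of freedom was 7.33), so all 6 were kept as separate samples. 9 gates had at least 30 cells in every library. The gate called effector-marked T cells (Cd3 genes with Nkg7, Gzmk, Klrg1 or Klrc1) held 1191 CPM (UMIs of a gene per 1000000 UMIs of the gate) of Cd8b1, beside 1202 in the CD8 T gate, and 70.1 of Cd4. The platelet gate held 8494 CPM of Ppbp and 746 of Itga2b but also 3567 of S100a8, 1267 of Ccr2 and 657 of Csf1r, so it is not platelets alone. In NK-gated cells Cd3e was at 0 by the gate, Ncr1 was at 1107 and Eomes at 458 CPM.

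H1f2 was the linker histone gene with the most UMIs, 15629 over all gates and libraries, and its level differed widely between cell types. All levels by cell type are CPM in non-cycling cells, those with no UMI of Mki67 or Top2a, over the 6 libraries. In the platelet gate H1f2 had a lowest value of 1033, a median of 1605 and a highest of 3329 CPM. In neutrophils it lay between 299 and 598 with a median of 538. Every platelet-gate value was above every neutrophil value, the only pair of neighbours in the H1f2 order whose ranges did not overlap. NK-gated cells came next, at 139, 265 and 467 CPM (lowest, median, highest), followed by classical monocytes at 77.0 to 315 and non-classical monocytes at 82.1 to 202. B cells held the narrowest range, 103 to 112 CPM. CD4 T cells at 64.5 to 149, CD8 T cells at 62.8 to 108 and effector-marked T cells at 67.7 to 106 CPM had the lowest means, and their ranges overlapped.

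**Figure D1:**
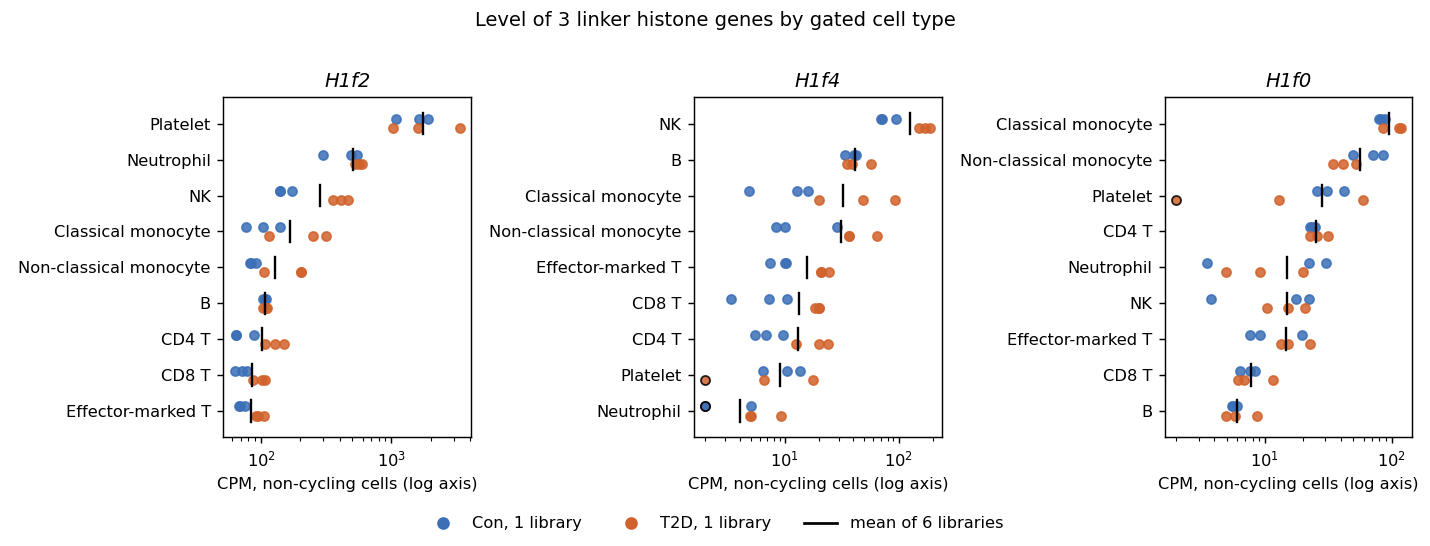
Level of H1f2, H1f4 and H1f0 in non-cycling cells of each gated cell type, in CPM on a log axis, ordered by mean. Each point is 1 library, blue for Con and orange for T2D, the black bar is the mean of 6 libraries, and points with a black edge lie below 2 CPM and are drawn at 2. H1f2 is highest in the platelet gate and in neutrophils, H1f4 in NK-gated cells and H1f0 in monocytes.

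Against B cells, with the library as a term of the fit (edgeR's quasi-likelihood test, Benjamini-Hochberg adjusted over all 8154 genes), H1f2 was 4.22 ± 0.18 log2 units higher in the platelet gate (SE; adjusted p = 3.53e-24; higher in 6 of 6 libraries) and 2.65 ± 0.23 higher in neutrophils (2e-13; 6 of 6). These calls stood in the Con libraries alone, at 4.06 ± 0.15 and 2.52 ± 0.21. In NK-gated cells the difference was 1.27 ± 0.20 (adjusted p = 5.49e-07; 6 of 6), but in the Con libraries alone it was 0.37 ± 0.23 (adjusted p = 0.216) and in the T2D libraries alone 1.78 ± 0.25. In classical monocytes it was 0.69 ± 0.29 (adjusted p = 0.0404; 4 of 6) over all libraries and -0.03 ± 0.33 (adjusted p = 0.941) in the Con libraries. Without any single T2D library the monocyte call was lost too, with an adjusted p of up to 0.231. In the 3 T cell gates and in non-classical monocytes H1f2 did not pass the test over all libraries. In the Con libraries alone it was called lower in CD4 (-0.49 ± 0.16; adjusted p = 0.0113), CD8 (-0.52 ± 0.18; 0.018) and effector-marked T cells (-0.52 ± 0.16; 0.00533), and in the T2D libraries alone it was called in none of these and called higher in non-classical monocytes (0.82 ± 0.33; 0.0479).

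H1f4, which encodes an abundant somatic H1 subtype, had another order. NK-gated cells had 70.1, 122 and 190 CPM (lowest, median, highest) and B cells 33.4, 39.8 and 57.1, so these ranges did not overlap. All later neighbours in the order did overlap, from classical monocytes (4.82 to 93.0 CPM) down to neutrophils (0 to 9.20). Against B cells H1f4 was 1.46 ± 0.19 log2 units higher in NK-gated cells (adjusted p = 6.99e-09; 6 of 6 libraries), and it was still called in the Con libraries alone at 0.92 ± 0.22 (adjusted p = 0.000524).
It was lower than in B cells in CD4 T cells by -1.63 ± 0.19 (adjusted p = 6.97e-10), CD8 T cells by -1.6 ± 0.23 (7.92e-08) and effector-marked T cells by -1.37 ± 0.17 (1.48e-09), each in 6 of 6 libraries. Neutrophils (-2.96 ± 0.84; 0.00203) and the platelet gate (-1.50 ± 0.55; 0.0146) were lower as well. The platelet call was lost in the T2D libraries alone (adjusted p = 0.0502) and under stricter gates (0.0763). In monocytes H1f4 did not pass the test over all libraries, whereas in the Con libraries alone it was called lower than in B cells in classical (-1.91 ± 0.56; 0.003) and non-classical monocytes (-1.27 ± 0.37; 0.00315). The platelet gate, highest for H1f2, was thus next to last for H1f4.

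H1f0 was highest in monocytes. Classical monocytes had 80.2, 87.1 and 119 CPM (lowest, median, highest), non-classical monocytes 34.7, 51.2 and 85.7, and B cells 4.92, 5.67 and 8.60. Between these ends lay the platelet gate (0 to 59.0), CD4 T cells (22.5 to 31.4), neutrophils (3.52 to 30.1), NK-gated cells (3.75 to 22.1), effector-marked T cells (7.67 to 22.7) and CD8 T cells (6.18 to 11.6). All neighbours in this order overlapped.
Against B cells H1f0 was higher by 4.03 ± 0.26 log2 units in classical monocytes (adjusted p = 4.75e-25), 3.31 ± 0.25 in non-classical monocytes (7.46e-21) and 2.07 ± 0.18 in CD4 T cells (2.25e-18), each in 6 of 6 libraries. The platelet gate (2.86 ± 0.35; 1.62e-11), neutrophils (1.69 ± 0.54; 0.00443), effector-marked T cells (1.33 ± 0.18; 4.86e-10) and NK-gated cells (1.16 ± 0.35; 0.00285) were called higher too. The neutrophil call was lost without Con 1 (adjusted p = 0.0856) and in the T2D libraries alone (0.168), and the NK call in the Con libraries alone (0.0588). CD8 T cells, at 0.42 ± 0.27 (adjusted p = 0.171), were the exception among the 8 gates.

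H1f3 and H1f5 were sparse, with 1044 and 468 UMIs over all gates and libraries. H1f3 had its highest mean in NK-gated cells (7.01 to 83.3 CPM) and its next in B cells (7.31 to 12.4), and in all other gates the mean was under that of B cells. H1f5 had 0 to 18.8 CPM in NK-gated cells, 0 to 25 in non-classical monocytes, 3.06 to 6.95 in B cells and no UMI in non-cycling neutrophils. Neither passed the low-count filter of the fit across cell types over all 6 libraries, so no test is given. H1f10 had 9 UMIs in all, 0 to 4 a library. Its level was at most 0.200 CPM in a library's gated cells, where 3 counts correspond to 0.135 to 0.168 CPM, and no more is said of it. Of the other linker histone genes, H1f1 had 86 UMIs, H1f8 11, H1f6 2 and H1f7 none.

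Of the 48 pairs of a member and a gate compared with B cells, 24 were in the fit and 17 were called, 12 higher and 5 lower. Most genes differed between these cell types, so these calls are not particular to the family. The share of all tested genes called against B cells was 64.1% in CD4 T cells, 61.1% in CD8 T cells, 69.6% in effector-marked T cells, 56.2% in NK-gated cells, 62.3% in classical monocytes, 63.1% in non-classical monocytes, 69.6% in neutrophils and 69.3% in the platelet gate.

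The core histone genes of the same clusters, which encode the H2A, H2B, H3 and H4 proteins of the nucleosome, were mostly too sparse to test across cell types. 5 of 50 were tested. In NK-gated cells 3 of these 5 were higher than in B cells (median 1.42 log2 units, beside -0.06 for all tested genes): H3c1 at 2.01 ± 0.27 (36.0 against 8.13 CPM; adjusted p = 9.79e-10), H2bc6 at 1.8 ± 0.40 and H2ac6 at 1.42 ± 0.40.
In neutrophils and in the platelet gate 4 of the 5 were higher and H3c1, with no UMI in either gate, was lower. H2bc4 went from 24.6 ± 4.11 CPM in B cells to 295 ± 54.0 in neutrophils (SD, n = 6; 4.13 ± 0.21 log2 units, adjusted p = 4.36e-22) and 1160 ± 462 in the platelet gate (5.74 ± 0.14; 3.95e-34). H4c9 and H2ac6 reached 163 ± 102 and 195 ± 177 CPM in the platelet gate. In the same gate 8 of 10 tested genes for histone mRNA processing were lower than in B cells, among them Srrt (70.0 against 214 CPM), Cpsf2, a subunit of the cleavage complex (60.1 against 190), and Cpsf3 (45.4 against 93.9), and all 9 tested DNA replication genes were lower. In T cells 3 or 4 of the 5 core histone genes were lower than in B cells and none was higher.

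By the mean over cell types, on a log2(CPM + 10) scale over the 9 gates, the core histone gene H4c9 was closest to H1f2 among 6489 genes (Pearson's r = 0.984), then Rnf11 (0.980) and Rab6a (0.975). With the platelet gate left out, a choice made after its level was seen, these were 0.972, 0.971 and 0.970. The genes closest to H1f4 were Slc25a1 (0.966), Eif1b (0.953) and Creld2 (0.953), those closest to H1f0 Ap3m1 (0.936), Nrp1 (0.923) and Scarb2 (0.922), those closest to H1f3 Ap1g1 (0.962), Gem (0.955) and Car2 (0.935), and those closest to H1f5 Lrp10 (0.962), Flii (0.938) and Kdm5c (0.933). Among the members, H1f4 was like H1f3 (0.934) and H1f5 (0.929), and H1f2 was like neither H1f4 (-0.241) nor H1f0 (0.012). These are descriptions over 9 points that share libraries and, in part, depth.

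In NK-gated cells H1f2, H1f3 and H1f4 were higher in every T2D library than in any Con library. The share of all genes whose groups do not overlap is not given, so here and below a lack of overlap is description only. All 3 members that passed the low-count filter there were called higher, beside 0.256% of all 5860 tested genes, and the members were chosen on this contrast, so nothing is read from that count. H1f2 had 181, 145 and 131 CPM in Con 1, 2 and 3 and 364, 414 and 444 in T2D 1, 2 and 3. The means were 153 ± 25.7 and 407 ± 40.2 CPM (SD, n = 3 each), a fitted difference of 1.42 ± 0.15 log2 units (SE).
H1f4 had 64.9, 74.1 and 89.6 CPM in the Con and 144, 186 and 180 in the T2D libraries, at 1.13 ± 0.20. H1f3 had 13.7, 6.17 and 23.9 against 45.3, 80.5 and 70.6 CPM, at 2.11 ± 0.40, and it passed the filter through the T2D libraries only. Its call was lost without Con 2 (1.73 ± 0.42), whereas with all gated cells those of H1f2 and H1f4 stood without any single library. H1f0 (6.84 to 20.9 against 10.9 to 22.4 CPM) and H1f5 (0 to 17.1 against 2.24 to 12.3) overlapped between the groups and were below the filter.

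Without cycling cells the NK values stayed close to these. H1f2 had 173, 140 and 139 CPM against 358, 407 and 467 (1.45 ± 0.15), H1f3 2.02 ± 0.39 and H1f4 1.09 ± 0.20. All 3 were called beside 0.382% of 5759 genes, and H1f3 and H1f4 lost their calls without Con 2 (1.67 ± 0.42 and 1.0 ± 0.23). With each non-cycling cell thinned to 1000 UMIs, leaving out 3 to 7 shallower cells per Con library and 5 to 13 per T2D library, H1f2 was detected in 9.90% to 15.8% of cells in the Con libraries and in 25.1% to 35.3% in the T2D libraries. At the cells' own depth the shares were 27.7% to 29.6% and 49.7% to 55.1%. No gate is known to lack H1f2, so a background share could not be set, and the lowest thinned share in any gate and library was 5.0%. H1f4 lost its call after thinning, and H1f2 kept it. H1f3 was not in the thinned fit.

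**Figure D2:**
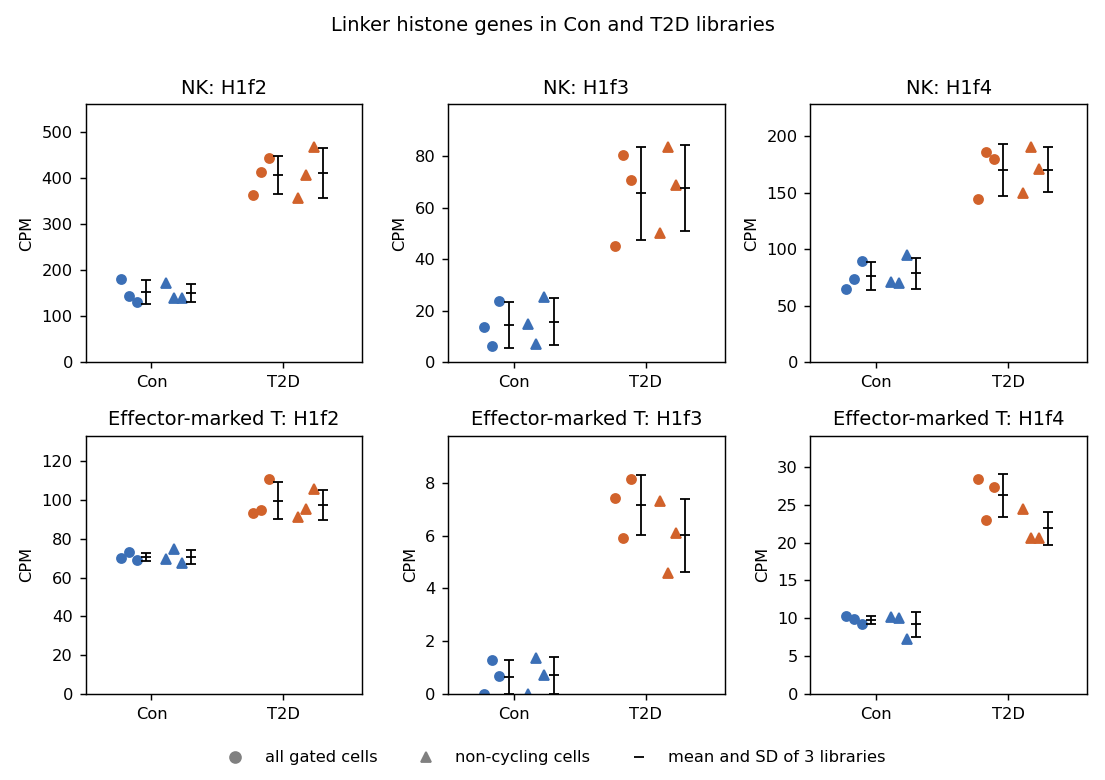
CPM of H1f2, H1f3 and H1f4 in NK-gated (top) and effector-marked T cells (bottom), for all gated cells (circles) and non-cycling cells (triangles). Each symbol is 1 library, blue for Con and orange for T2D with replicates 1 to 3 from left to right, and bars are the mean and SD of 3 libraries. In all 6 panels the T2D symbols lie above the Con symbols, for example 364 to 444 against 131 to 181 CPM for H1f2 in NK-gated cells.

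NK-gated libraries held 90 to 111 cells in Con and 148 to 221 in T2D, and markers of other cells were compared in the non-cycling NK sums. The summed red cell markers (Hbb-bs, Hba-a1, Hba-a2) ran from 113 to 161 CPM in the Con and from 256 to 7665 in the T2D libraries, with 3 of 3 genes higher on average and none called. Platelet markers ran from 6.31 to 26.3 and 15.1 to 24.2 CPM, neutrophil markers from 44.1 to 84.1 and 43.2 to 111, B cell markers from 1734 to 2401 and 1811 to 1970, and monocyte markers from 2064 to 2383 and 1765 to 2792. Pooled over all NK-gated cells, Ly6c2 of the monocyte list was at 1849 CPM, beside 258 of Ccr2 and 11.9 of Csf1r. The monocyte sum is thus mostly Ly6c2 and is not a measure of monocyte RNA alone. The T cell markers Cd3d, Cd3e and Cd3g were at 0 by the gate, and the 9 T cell genes together ran from 570 to 732 and 513 to 686 CPM. The part of the red cell signal in the linker histone values was not tested. Restricted to gated cells with no UMI of Pf4, Ppbp or Gp9, a choice made after the platelet level was seen, H1f2 was at 1.49 ± 0.15, H1f3 at 2.02 ± 0.41 and H1f4 at 1.12 ± 0.20.

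Few other genes of the histone pathway were called in NK-gated cells. In non-cycling cells 1 of 3 tested core histone genes was higher, H2bc8, from 24.8 ± 12.1 to 72.7 ± 25.4 CPM (1.51 ± 0.35; adjusted p = 0.0301), with a list median of 0.77 beside -0.01 over all genes. The Con mean of H2bc8 lay under the low-count filter's minimum of 26.7 CPM in this gate, so nothing is read from its call. All 50 core histone genes summed to 131 to 182 CPM in the Con and 297 to 435 in the T2D libraries, which did not overlap. Of 7 replacement histone genes H3f3b, for histone H3.3, was higher (823 ± 31.3 to 1134 ± 4.66; 0.46 ± 0.10, adjusted p = 0.0187).
None of 9 genes for histone mRNA processing, 17 for chaperones and competitors of H1, 7 for DNA replication or 3 for mitosis was called, where edgeR called 22 of 5759 genes, DESeq2 14, and 457 had an unadjusted p under 0.05. Of the genes known to mark less mature NK cells, Tcf7 (-1.14 ± 0.20; 184 to 82.9 CPM; adjusted p = 0.000526) and Cd7 (-0.73 ± 0.17; 328 to 199; 0.0323) were lower, 2 of 8, and none of 8 genes of mature NK cells was called. The less mature list summed to 1092 to 1545 CPM in the Con and 666 to 802 in the T2D libraries, and the mature list to 5550 to 7050 and 7174 to 8092, with 7 of its 8 genes higher on average. For neither list did the groups overlap. Whether a changed mix of NK maturity bears on the linker histone values was not tested.

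Effector-marked T cells held the same 3 genes at lower levels. H1f2 had 70.4, 73.1 and 68.9 CPM in Con 1 to 3 and 93.4, 95.1 and 111 in T2D 1 to 3 (0.43 ± 0.09 log2 units). H1f4 had 10.3, 9.89 and 9.20 against 28.4, 23.0 and 27.3 (1.36 ± 0.18). For neither gene did the groups overlap.
H1f3 had 0, 1.29 and 0.682 CPM, 5 UMIs in all, against 7.41, 5.91 and 8.15, or 103 UMIs. Its fitted difference of 3.28 ± 0.52 rests on those 5 UMIs, and it passed the filter through the T2D libraries only, as H1f5 did (1.16 ± 0.46, not called). 3 of the 5 members in the fit were called, beside 3.48% of 10083 genes. Among non-cycling cells 3 of 4 were called, beside 1.87% of 9867 genes, at 0.41 ± 0.10 for H1f2, 2.92 ± 0.56 for H1f3 and 1.21 ± 0.21 for H1f4. With all gated cells the H1f2 call was lost under stricter gates (0.45 ± 0.13). Without cycling cells it was lost without any single library other than T2D 1, by DESeq2, after thinning and under stricter gates, and the H1f4 call after thinning and under stricter gates. H1f3 was in the fit neither after thinning nor under stricter gates, and without cycling cells DESeq2 gave no adjusted p for H1f3.

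Beside these values, markers moved in the same non-cycling gate. Cd4, the co-receptor of helper T cells, rose from 27.6 ± 2.85 to 76.2 ± 20 CPM (1.41 ± 0.19; adjusted p = 0.00192), 1 of 9 T cell markers called. The 9 markers summed to 7274 to 7477 CPM in the Con and 7565 to 8202 in the T2D libraries. Csf3r and Cxcr2, 2 of 6 neutrophil markers, rose as well, with list sums of 39.2 to 125 and 90.9 to 248 CPM. H2-Aa, 1 of 11 B cell markers, was lower. Red cell markers ran from 96.7 to 396 and 290 to 1839 CPM, and monocyte markers from 1819 to 1887 and 2084 to 2541, with none of 3 and none of 5 called. Pooled over all cells of this gate, Ly6c2 of the monocyte list was at 1860 CPM, beside 104 of Ccr2 and 9.58 of Csf1r. That sum is thus mostly Ly6c2 and is not a measure of monocyte RNA alone. The 8 genes of mature NK cells, all higher on average in T2D, summed to 249 to 388 CPM in the Con and 448 to 799 in the T2D libraries, without overlap. Of these Itgam, a myeloid and NK cell integrin, was called (0.99 ± 0.24; adjusted p = 0.0281), and the list median was 0.91. The part of these shifts in the linker histone values was not tested. Hmgb2, an HMG-box protein that competes with H1 for nucleosomes, rose from 157 ± 7.95 to 226 ± 5.30 CPM (0.47 ± 0.08; adjusted p = 0.00109), the only called gene of 17 tested in its list. With cycling cells included, 2 of 19 DNA replication genes rose, Rrm2 (5.30 ± 1.36 to 17.4 ± 2.70 CPM) and Tyms (4.08 ± 1.48 to 10.2 ± 4.50), and 3 of 19 mitosis genes, Cdk1, Tpx2 and Cenpe, with Smc4 lower. Without cycling cells none of 16 and none of 5 was called, where edgeR called 185 genes, DESeq2 143, and 1434 had an unadjusted p under 0.05.

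In CD4 T cells H1f2 had 64.3, 66.5 and 89.8 CPM in the Con and 109, 149 and 135 in the T2D libraries (0.74 ± 0.12). H1f4 had 9.19, 10.1 and 6.01 against 13.9, 20.3 and 28.7 (1.29 ± 0.27). Neither gene's groups overlapped, H1f0 overlapped (23.2 to 26.2 against 23.8 to 33.1 CPM), and 2 of the 3 members in the fit were called, beside 3.86% of 9277 genes.
The H1f4 call was lost without T2D 3. Among non-cycling cells both stood at 0.74 ± 0.13 and 1.35 ± 0.28, beside 2.99% of 9167 genes. Those calls stood without any single library. After thinning that of H1f2 was lost, and H1f4 was not in the fit. Red cell markers ran from 112 to 423 CPM in the Con and 648 to 1618 in the T2D libraries and monocyte markers from 132 to 255 and 274 to 530. No marker of either list was called there, and their part in the linker histone values was not tested. Of the histone chaperone and competitor list, Hmgb2 was higher (156 ± 17.1 to 216 ± 3.82; 0.41 ± 0.09, adjusted p = 0.00317) and Nasp, a linker histone chaperone, lower (130 ± 22.4 to 105 ± 9.11; -0.37 ± 0.11, 0.0396), 2 of 17 tested.

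In CD8 T cells H1f4 had 10.3, 6.92 and 3.26 CPM in the Con and 19.9, 20.5 and 18.4 in the T2D libraries (1.49 ± 0.34), passing the filter through the T2D libraries only. H1f2 had 70.5, 76.1 and 62.7 against 89.1, 97.9 and 110, without overlap, at 0.46 ± 0.13, and was not called. 1 of the 3 members in the fit was called, beside 0.804% of 8456 genes, and 1 of 3 among non-cycling cells, beside 0.798% of 8399. The H1f4 call was lost without any single library other than Con 1, and DESeq2 gave no adjusted p for H1f4. Without cycling cells H1f4 was in the fit neither after thinning nor under stricter gates. In the same cells Ppbp, a platelet chemokine, was higher in T2D (11.4 ± 6.76 to 30.6 ± 5.94 CPM; 1.34 ± 0.30, adjusted p = 0.021). In cells with no UMI of Pf4, Ppbp or Gp9 H1f4 was at 1.51 ± 0.35.

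Monocyte values were less even. In classical monocytes H1f2 had 128, 73.5 and 85.6 CPM in the Con and 110, 255 and 296 in the T2D libraries, so T2D 1 lay within the Con range. It was called at 1.24 ± 0.30, 1 of 2 members in the fit, beside 0.657% of 3956 genes. That call was lost without Con 2, Con 3, T2D 2 or T2D 3, by DESeq2 and without scaling factors. Among non-cycling cells it was not called (1.11 ± 0.30), beside 0.682% of 3664 genes, where edgeR called 25 genes, DESeq2 13, and 250 genes and 1 of the 2 members had an unadjusted p under 0.05. Libraries of this gate held 35 to 85 cells. In the non-cycling sums H3f3b rose (886 ± 45.8 to 1497 ± 169 CPM; 0.76 ± 0.15, adjusted p = 0.0007), as did the red cell marker Hba-a2 (35.7 ± 18.5 to 99.9 ± 46.0), whose part was not tested.
In non-classical monocytes H1f2 had 82.9, 104 and 84.4 against 101, 209 and 207 CPM (1.05 ± 0.23), with T2D 1 again within the Con range. H1f4 had 13.5, 7.96 and 27.1 against 62.4, 38.9 and 28.7 (1.21 ± 0.45, not called), passing the filter through the T2D libraries only. 1 of 3 members was called, beside 0.847% of 5664 genes, and 1 of 3 without cycling cells (0.99 ± 0.24), beside 1.04% of 4995. The call was lost without Con 1, T2D 2 or T2D 3 and by DESeq2, and without cycling cells also without Con 2. In the same gate Hbb-bs and Hba-a2, 2 of 3 red cell markers, were higher in T2D (56.1 to 226 and 26.6 to 104 CPM), and their part was not tested. H1f0 was lower here, at 62.6, 47.8 and 75.4 against 50.7, 33.3 and 42.1 CPM, with overlap (-0.67 ± 0.31, not called).

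B cells, the most numerous gate, gave even values. H1f2 had 110, 103 and 106 CPM in the Con and 110, 116 and 104 in the T2D libraries (0.03 ± 0.06). H1f4 had 42.3, 33.8 and 40.2 against 56.4, 38.5 and 35.2 (0.15 ± 0.21), and H1f0, H1f3 and H1f5 lay between -0.18 ± 0.18 and 0.07 ± 0.23. All 5 members in the fit overlapped between the groups and none was called, beside 0.955% of 11627 genes and, without cycling cells, 1.06% of 11519. Of these 5, DESeq2 also called none, and none had an unadjusted p under 0.05.
In neutrophils H1f2 had 521, 357 and 471 against 564, 547 and 592 CPM, without overlap, at 0.37 ± 0.18, and was not called, beside 1.73% of 3067 genes (1.76% of 2777 without cycling cells). In the platelet gate it had 1037, 1484 and 1672 against 1488, 1007 and 3140 CPM, so the groups overlapped (0.58 ± 0.47). There edgeR called 0.0% of 3836 genes, 163 had an unadjusted p under 0.05 and DESeq2 called none. Without cycling cells edgeR called 0.0% of 3544, 125 had an unadjusted p under 0.05 and DESeq2 called 1. In both gates H1f2 was the only member in the fit, with an unadjusted p above 0.05 and no call by DESeq2.

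**Figure D3:**
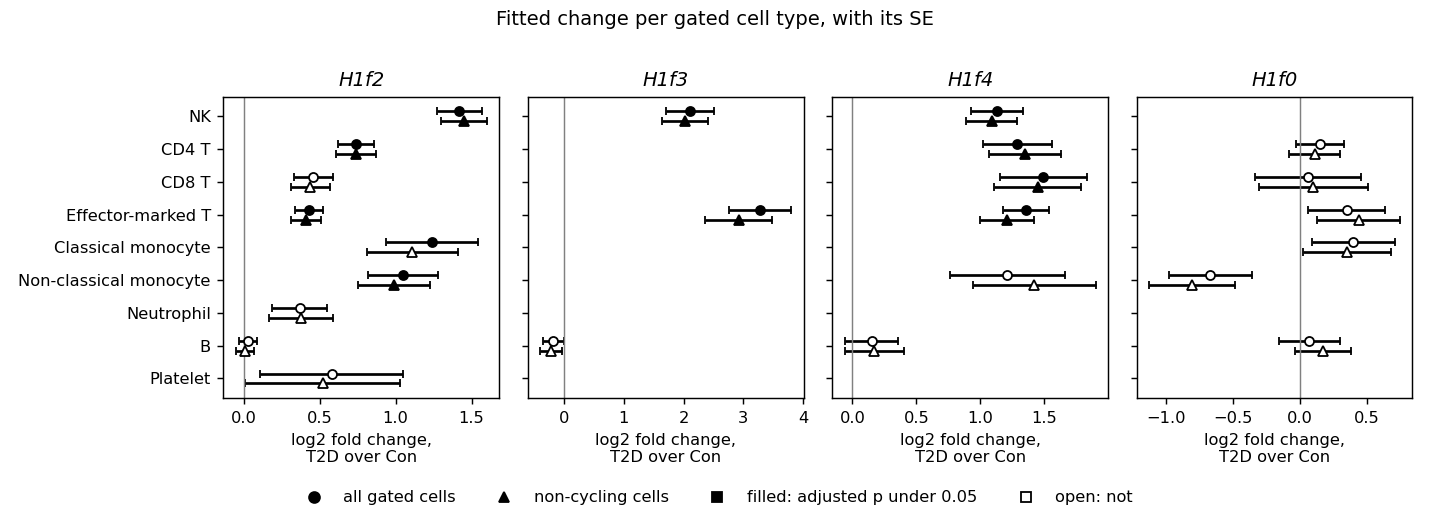
Fitted log2 fold change of T2D over Con for H1f2, H1f3, H1f4 and H1f0 in each gated cell type, with its SE, for all gated cells (circles) and non-cycling cells (triangles). Filled symbols have a Benjamini-Hochberg adjusted p under 0.05 in edgeR, open ones do not, and a missing symbol means that the gene was below the low-count filter. H1f2 lies near 0 in B cells (0.03) and highest in NK-gated cells (1.42), and H1f0 has no filled symbol.

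Over the 9 gates 26 of 54 pairs of a member and a gate were in the fits and 11 were called, all higher in T2D. Without cycling cells 25 were in the fits and 10 were called, all higher. Per gate, 0.0% to 3.86% of all tested genes were called, and 0.0% to 2.99% without cycling cells. The members were chosen on this contrast, so nothing is read from these counts. Among the called pairs, H1f3 in NK-gated and effector-marked T cells and H1f4 in CD8 T cells passed the filter through the T2D libraries only. H1f2 made 5 of the 11 calls, H1f4 4 and H1f3 2. H1f0 and H1f5 made none. The gates share the same 3 Con libraries, so they are not independent repeats, and the differences between gates were not tested.

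Cycling cells were compared with non-cycling cells within each library, a contrast that did not choose the members. Pooled over the lymphocyte gates, H1f0 and H1f5 rose in cycling cells, whereas H1f2, H1f3 and H1f4 did not pass the test. There were 1538 cycling lymphocytes, 169 to 343 a library. In cycling cells H1f0 had 23.8 to 39.5 CPM against 8.17 to 14.2 in non-cycling cells. The means were 34.8 ± 5.69 and 10.9 ± 2.25 CPM (SD, n = 6), a difference of 1.6 ± 0.16 log2 units (adjusted p = 2.78e-09; higher in 6 of 6 libraries).
H1f5 rose from 3.61 ± 0.93 to 9.83 ± 3.78 CPM (1.45 ± 0.30; adjusted p = 0.000519; 5 of 6), on 69 UMIs in cycling cells. H1f2 was at 107 ± 12.2 and 116 ± 23.5 CPM (0.09 ± 0.07; adjusted p = 0.419), H1f3 at 8.77 ± 1.01 and 10.5 ± 7.46 (0.24 ± 0.30; 0.622) and H1f4 at 33.4 ± 6.28 and 41.7 ± 14.4 (0.30 ± 0.14; 0.150). These calls, 2 of 5 members in the fit, stood beside 23.3% of 11614 genes called, so a call in this contrast was common. Both kept their call without any single library.

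**Figure D4:**
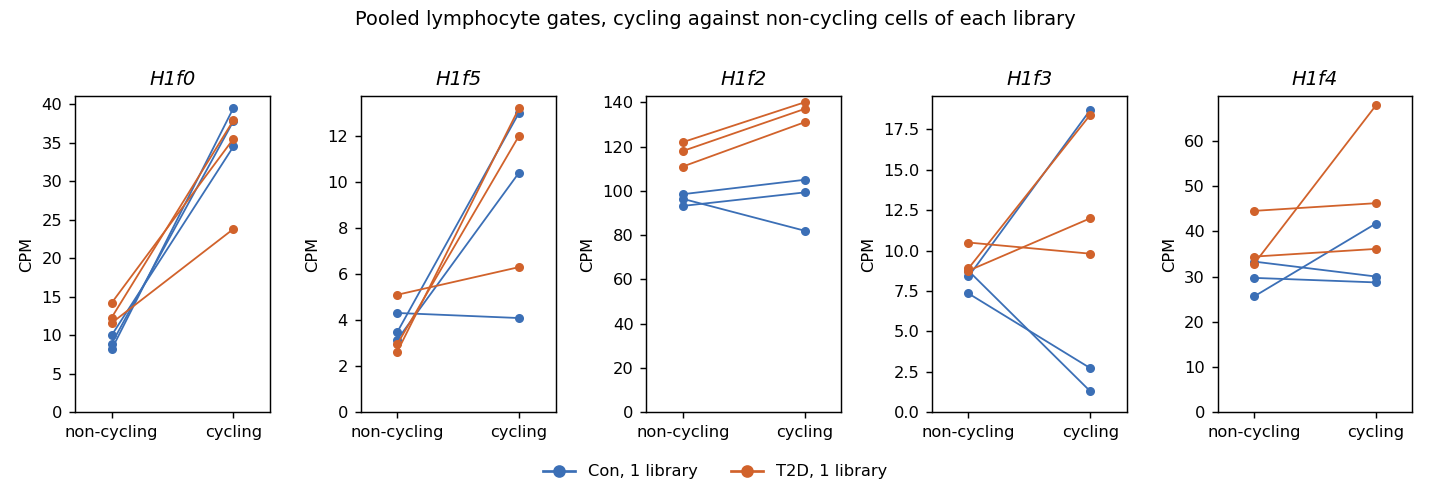
CPM of 5 linker histone genes in non-cycling and cycling cells of the pooled lymphocyte gates, with 1 line per library, blue for Con and orange for T2D. H1f0 rises in all 6 libraries and H1f5 in 5, while H1f2, H1f3 and H1f4 rise in 5, 3 and 4 libraries and did not pass the test.

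Within single gates the calls were fewer. In B cells H1f0 rose from 6.06 ± 1.3 to 22.6 ± 12.2 CPM (1.81 ± 0.33; adjusted p = 8.06e-05; 5 of 6 libraries), 1 of 5 members, beside 6.65% of 10364 genes. H1f5 did not rise there, at 4.92 ± 1.27 and 5.04 ± 3.82 CPM (0.02 ± 0.51; adjusted p = 0.992). It was below the low-count filter in CD4 T cells (0.621 and 13.7 CPM in non-cycling and cycling cells) and effector-marked T cells (1.78 and 14.5). In CD4 T cells 2 of 3 members were called, beside 7.13% of 7634 genes: H1f0 (0.89 ± 0.30; adjusted p = 0.0459; 6 of 6) and H1f4 (1.44 ± 0.38; 0.0035; 5 of 6).
The CD4 H1f0 call was lost without Con 2 or any single T2D library, up to an adjusted p of 0.290, by DESeq2 and without the low-count filter. The CD4 H1f4 call was lost without Con 2 (where 20 cycling cells held 87.1 CPM) or T2D 3, up to 0.108. In effector-marked T cells 2 of 3 were called, beside 11.5% of 8323 genes: H1f0, from 14.6 ± 5.85 to 35.5 ± 13.7 CPM (1.02 ± 0.26; 0.00447; 5 of 6), and H1f4, from 15.5 ± 7.15 to 36.3 ± 24.7 CPM (1.21 ± 0.23; 5.19e-05; 5 of 6). Without T2D 3 the H1f0 call there was lost at 0.0859.

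Most cell cycle genes were higher in cycling cells of the pooled contrast. Of 20 tested DNA replication genes 17 were higher in cycling cells and none lower (median 0.84 log2 units, beside -0.02 over all genes). The largest folds among them were those of Pclaf (5.87 ± 0.26), Rrm2 (2.97 ± 0.28), Uhrf1 (2.70 ± 0.28), Cdc6 (2.38 ± 0.39) and Tyms (2.18 ± 0.30). Of 22 mitosis genes 20 were higher (median 3.45), led by Hmmr (6.15 ± 0.46), Cenpf (5.79 ± 0.39), Bub1 (5.75 ± 0.50), Birc5 (5.17 ± 0.30) and Ccna2 (4.99 ± 0.33). The cells were picked by Mki67 and Top2a, so this only checks the gate.
Of the core histone genes 1 of 18 was called, H2ac8 (1.70 ± 0.265 to 4.01 ± 2.06 CPM; 1.2 ± 0.40; adjusted p = 0.0251), with a median of 0.10. Of 9 replacement histone genes H2az1 (0.68 ± 0.08), H2az2 (0.33 ± 0.07) and H2ax (0.44 ± 0.11) rose and H3f3a (-0.24 ± 0.05), H3f3b (-0.13 ± 0.04) and H2aw (-0.70 ± 0.17) fell. Of 18 chaperones and competitors of H1, 4 rose, Hmgb2 (1.04 ± 0.07), Hmgn3 (0.93 ± 0.30), Hmgn2 (0.50 ± 0.10) and Cbx5 (0.43 ± 0.09), and Hmgn1 (-0.42 ± 0.06) and Parp1 (-0.44 ± 0.06) fell. Of 13 genes for histone mRNA processing none rose and Cpsf2 (-0.19 ± 0.06) and Cpsf3 (-0.25 ± 0.08) fell.

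Cell type markers moved with the cycling contrast as well. In the pooled lymphocytes 9 of 9 T cell markers were higher and 10 of 11 B cell markers lower in cycling cells. H1f0 itself was higher in CD4 and effector-marked T cells than in B cells, and H1f4 was lower in both. Within the B cell gate 6 of 11 B cell markers were lower, 3 of 6 neutrophil markers, 1 of 4 platelet markers and 4 of 6 genes of mature NK cells were higher, and no T cell or monocyte marker was called. The mean number of UMIs per cell was higher in cycling cells in 6 of 6 libraries, at 3698 to 4529 against 2745 to 2991 in B cells and 4106 to 4846 against 3099 to 3459 in the pooled lymphocytes. The part of these differences in the H1f0, H1f4 and H1f5 values was not tested.

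The share of cycling cells was higher in every T2D than in every Con library in 3 gates. In effector-marked T cells it was 7.97%, 5.23% and 5.78% against 12.0%, 11.6% and 11.7%, or 6.33 ± 1.45% and 11.8 ± 0.186% (SD, n = 3 each; two-sided exact permutation p = 0.1, the smallest that 3 against 3 libraries allow, and 0.3 adjusted over 9 gates). In B cells it was 2.70 ± 0.197% and 3.47 ± 0.487%, and in CD8 T cells 1.99 ± 1.08% and 3.82 ± 0.504%, each with the same exact p of 0.1 and adjusted value of 0.3. With at least 2 UMIs of Mki67 and Top2a together asked for, the shares overlapped in B cells (1.02 ± 0.134% and 1.18 ± 0.124%) and in CD8 T cells (0.408 ± 0.467% and 0.937 ± 0.516%). In effector-marked T cells they stayed apart, at 2.16 ± 0.428% and 5.41 ± 0.505%. With cells thinned to 1000 UMIs the effector share was 1.95 ± 0.719% and 4.73 ± 0.927%. B cells (1.12 ± 0.119% and 1.54 ± 0.158%) and CD8 T cells (0.629 ± 0.545% and 1.94 ± 0.394%) then stayed apart too. Classical monocytes (5.89 ± 4.32% and 2.28 ± 0.38%) and the platelet gate (3.89 ± 2.88% and 0.0%) were lower in T2D without overlap. Each of these thinned shares had the same exact permutation p of 0.1 and an adjusted value of 0.18. In NK-gated cells the shares overlapped at 6.43 ± 1.81% and 6.04 ± 2.92% (exact permutation p = 0.9). No share of cycling cells differed at a threshold of 0.05, which this design cannot reach. The flag rests on Mki67 and Top2a alone. Of the 22 mitosis genes, 11 had no UMI in all gated neutrophils, Cdk1, Ccna2 and Birc5 among them. In classical monocytes this held for 6 genes and in B cells for 0. Whether the flagged cells of the myeloid gates were cycling was not tested.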

How the data were processed

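Single-cell RNA of 3 Con and 3 T2D libraries was used as the deposited count matrices (whole-number UMI counts per gene and cell, per the values; CASAVA 1.8, UMI-tools, Seurat and mm10, per the submitters' processing notes, which name no other version and no strand setting). The filter was 200 or more genes and no more than 20% of UMIs from mitochondrial genes, and Scrublet calls (score over 0.2787) were left out as doublets, 2.56% to 3.65% per library. Cells were gated on marker UMIs, without clustering, and cells in several gates were not used. Counts were summed per library and gate, and CPM is per 1000000 UMIs of that sum. edgeR 4.0.16 (R 4.3.3; TMM, filterByExpr, robust quasi-likelihood test, Benjamini-Hochberg adjusted p under 0.05) was fitted over all genes, with the library as a term for cycling and cell type contrasts, and tested on simulated data. DESeq2 1.42.0, other filters, scalings, gates, thinning and leaving out libraries were the alternatives. The members, gene lists and gates were chosen with earlier results of these data known. Named genes are the 6 members, per list the 3 called genes of highest mean CPM (in the cycling contrast the 5 largest folds), and the 3 genes most like a member. Others named with a count of 5 or fewer were chosen after their values were seen. Levels are not compared between genes, since 3′ counts are not per length, and intervals cover counting error only.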

Additional observations from a re-analysis of the deposited data

How the results depend on the processing

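Of the 11 T2D against Con calls with all gated cells, 119 of 138 alternatives kept the call, and of the 10 without cycling cells 116 of 142. For the cycling calls 64 of 73 alternatives did so, and for the calls against B cells 218 of 230. Alternatives whose fit did not hold the gene, or that could not be run, are left out of these totals. Leaving out 1 library gave 7 to 10 member calls with all cells, 5 to 10 without cycling cells, 4 to 7 in the cycling contrast (main count 7) and 16 to 22 against B cells. Without cycling cells DESeq2 called 6, thinning every cell to 1000 UMIs left 1, and stricter gates left 5 of the 9 calls of the 7 gates that could be run, where the monocyte gates held too few cells. Without the low-count filter 31 member calls were made against B cells in place of 17. In the Con libraries alone H1f2 in classical monocytes against B cells turned to -0.03, and the neutrophil difference in cycling share turned from -1.29 to 0.826 percentage points when 2 UMIs were asked for. The cause was not tested for any of these. Thinning leaves fewer UMIs per library by construction, and the part of this in the lost calls was not tested. In cells without platelet UMIs, chosen after seeing the data, 10, 10 and 18 calls were made. Fitted with the replicate number as a block, 12 and 11 member calls were made in place of 11 and 10, the added call being H1f2 in CD8 T cells (0.46 ± 0.13 and 0.44 ± 0.13). Same-numbered libraries correlated at 0.21 to 0.30 in B cells, where the other pairs gave -0.19 to -0.07. In CD4 T cells they correlated at 0.02 to 0.06 and the other pairs at -0.07 to 0.05. In effector-marked T cells these values were -0.12 to 0.22 and -0.29 to 0.16. The labels state no pairing, so whether the numbers pair the samples is a hint from B cells only. Depth limits H1f3, H1f5 and H1f10 and all gates under 100 cells. The short annotated end of H1f5 and the overlaps of H1f10 with other genes may limit their counts as well, which was not tested.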

Other observations

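Gates with too few cells for a test were summed over the libraries of a group, with exact Poisson 95% intervals that cover counting error only. In regulatory T cells (25 in Con, 89 in T2D) H1f0 was at 174 CPM (103 to 276) in Con and 142 (108 to 183) in T2D, and H1f4 at 9.69 (0.245 to 54.0) and 48.8 (29.8 to 75.4). Con 3 gave 15 of the 18 H1f0 UMIs and the 1 H1f4 UMI of the Con sum, and without it these were at 101 and 0 CPM. In eosinophils (39 and 20 cells) H1f2 was at 680 CPM (500 to 905) in Con and 1249 (955 to 1604) in T2D. T2D 3 gave 57 of the 61 UMIs of the T2D sum, which was at 240 CPM without it, below the Con sum. The libraries had 626, 121 and 874 CPM in Con and 100, 449 and 1772 in T2D, with overlap. In plasma cells (17 and 46) H1f2 was at 283 (210 to 375) and 315 (267 to 370), and the Con sum was at 173 without Con 2. No test was made between these sums.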
